A study of Mus musculus with 40 samples.

Results

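The mitochondrial ribosomal protein genes were taken as the symbols of the deposited count table that start with Mrpl or Mrps and a number, without pseudogenes (names with -ps). The rule found 78 genes among 26792 symbols. It uses names only and no measured value. All 78 passed the filter on low counts over the 40 libraries, 76 passed it in the pull-downs alone and 77 in the supernatants alone. Libraries came from microdissected hypothalami of Aldh1l1 eGFP-L10a mice, in which the tagged ribosomal protein L10a is made under the control of the astrocyte gene Aldh1l1. Translating ribosome affinity purification pulls down the tagged cytosolic ribosomes with their messages (the pull-down, IP) and leaves the supernatant (SN) with the messages of all cells. Sham-operated mice ate chow (Sham-Chow, n = 7 per fraction) or a high-fat diet (Sham-HFD, n = 6 per fraction), and orchiectomised mice, whose testes had been removed, ate the high-fat diet (GDX-HFD, n = 7 per fraction), in each case for 4 weeks. All mice carry the transgene, their age is not given in the sources used here, and no orchiectomised mice on chow entered, so orchiectomy could be compared only between mice on the high-fat diet. The labels number the samples without saying that a number is 1 mouse, so p-values refer to the spread between the numbered samples.

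Mitochondria keep their own ribosome, which translates the few messages of mitochondrial DNA into core subunits of the respiratory chain. Its ribosomal RNAs come from mitochondrial DNA, whereas all its proteins are encoded in the nucleus, made on cytosolic ribosomes and imported. Part of these proteins have counterparts in the bacterial ribosome, and the others were gained in mitochondria. The large subunit (mostly Mrpl symbols) joins amino acids, and the small subunit (mostly Mrps symbols) reads the message. The factors NRF1, GABP (an ETS-family factor) and YY1 are known to act at promoters of many nuclear genes for mitochondrial proteins.

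Promoter stretches are given for the member furthest above 0 between the fractions and the member furthest below 0 among those above 5 CPM. Another is given for the only members whose starts lie within 1000 bases of each other on opposite strands. All come from RefSeq (GRCm38.p6), run 5′ to 3′ on the plus strand and end 30 bases into the transcript. For Mrpl9 (chr3:94443086-94443365) and Mrps26 (chr2:130563507-130563786) the capitals mark letters of a searched motif. For Mrps11 (chr7:78783060-78783160) they mark the bases from the start of Mrpl46, which is read leftwards, to the start of Mrps11, which is read rightwards.
Mrpl9: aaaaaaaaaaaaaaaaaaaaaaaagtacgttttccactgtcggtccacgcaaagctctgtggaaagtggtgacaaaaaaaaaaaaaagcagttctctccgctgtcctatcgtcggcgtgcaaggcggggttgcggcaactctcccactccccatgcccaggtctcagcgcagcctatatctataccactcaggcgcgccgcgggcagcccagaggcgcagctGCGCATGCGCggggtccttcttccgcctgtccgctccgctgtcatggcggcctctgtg
Mrps26: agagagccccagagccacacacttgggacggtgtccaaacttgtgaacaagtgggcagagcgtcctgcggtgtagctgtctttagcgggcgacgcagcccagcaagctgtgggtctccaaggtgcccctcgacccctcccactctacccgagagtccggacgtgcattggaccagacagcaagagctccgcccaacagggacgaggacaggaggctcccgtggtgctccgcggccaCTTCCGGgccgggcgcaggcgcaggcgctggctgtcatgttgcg
Mrps11: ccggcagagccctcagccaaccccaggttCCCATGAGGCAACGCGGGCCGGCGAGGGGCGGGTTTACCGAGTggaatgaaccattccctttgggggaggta
Windows from 250 bases before to 50 after the start were listed for 69 of the 78 members and searched on both strands, and a gene with several windows counted once. The letters GCATGCGC, from the NRF1 motif, stood in 8 of the 69 (11.6%), against 4.61% of the 15193 genes of the count table with a window. The letters CCGGAAG, from the ETS motif, stood in 26 (37.7%) against 14.9% of all windows' genes. The letters AAGATGGC, from the YY1 motif, stood in 12 (17.4%) against 4.07%. At least 1 of the 3 stood in 38 members (55.1%) against 21.5% of all, and in no member did letters of different motifs overlap. In Mrpl9 the NRF1 letters and their reverse complement overlap, starting 26 and 28 bases upstream of the start. In Mrps26 the ETS letters start 14 bases upstream, on the minus strand. All members passed the filter on low counts, whereas the genes set beside them here were not limited to those that passed it. A match is a description of letters and not a measured binding site.

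A pull-down held 7714834 to 20792175 estimated counts and a supernatant 8739276 to 12931869. Values below are counts scaled by TMM to a common library total (CPM), and since the kit reads 1 tag per message near its 3′ end they were not divided by gene length. The 10 astrocyte markers were all higher in the pull-down and summed to between 36247 and 55096 CPM there, against 1542 to 4450 CPM in the supernatants. The 10 neuronal markers were all lower and summed to between 244 and 737 CPM, against 3886 to 5273 CPM. None of these markers was at 0 throughout either fraction, and the 8 endothelial markers were also all higher in the pull-down (median log2 fold change 2.04). Mitochondrially encoded messages took 0.643% to 1.63% of pull-down counts and 19.2% to 27.8% of supernatant counts. Gm42418, an RNA gene within a ribosomal RNA repeat, took over 10% of the counts in 4 pull-downs, namely 18.2% in Sham-HFD 1, 16.9% in GDX-HFD 11, 15.1% in GDX-HFD 22 and 13.3% in Sham-Chow 8.

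The members together held 0.291% ± 0.0330 of a pull-down's counts and 0.290% ± 0.0342 of a supernatant's (SD, n = 20 each). The pull-downs ranged from 0.232% to 0.373% and the supernatants from 0.228% to 0.341%, so both fractions covered nearly the same range. These are shares of all counts, including mitochondrially encoded messages (mean 0.847% of a pull-down's total, 22.7% of a supernatant's). Gm42418 is included too (means 5.98% and 1.49%). The near equality therefore depends on these totals, and shares without those RNAs were not computed. Single members ran from under 1 CPM to over 100 CPM. The highest mean levels were those of Mrps33, with 179 ± 30.5 CPM in the pull-downs and 88.7 ± 13.3 in the supernatants, and Mrps21, with 151 ± 18.8 and 110 ± 21.0. Mrpl51, Mrpl18 and Mrpl43 followed. Mrpl23 (0.542 ± 0.391 and 0.776 ± 0.360 CPM), Mrpl53 and Mrps28 (8.86 ± 3.16 and 6.78 ± 1.79 CPM) were lowest. Mrpl53 was at 0 in 33 of the 40 libraries and reached 25.9 CPM in 1 supernatant. Between libraries of a fraction the median coefficient of variation of a member was 13.9% in the pull-downs and 14.6% in the supernatants. Across the 78 members the log2 mean levels of the fractions had Pearson's r of 0.89 and Spearman's rho of 0.798, a description over genes that share libraries. Mrpl23 and Mrpl53, the 2 members with means under 5 CPM, lie far below the others on the log2 scale. Values without them were not computed.

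**Figure D1:**
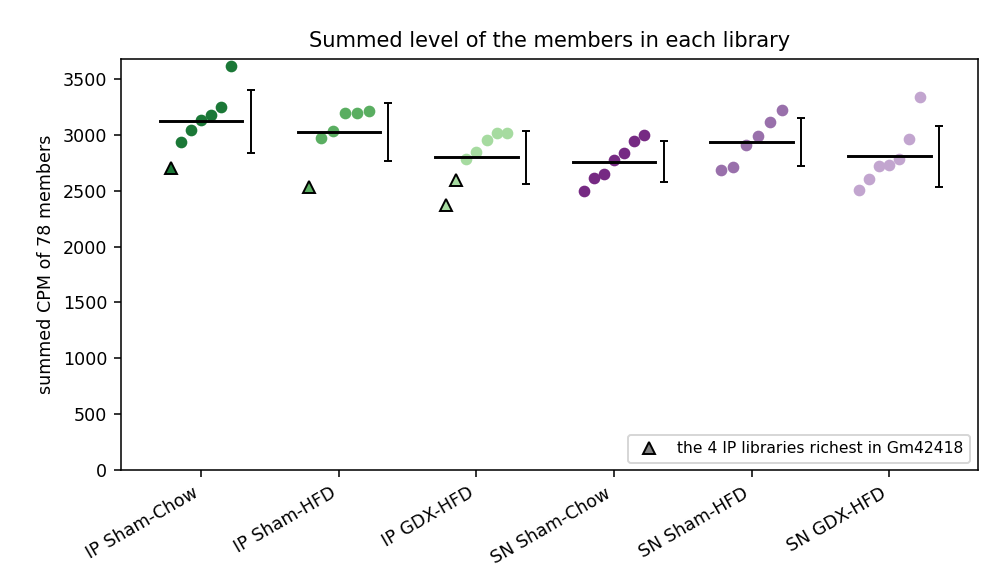
Summed CPM of the 78 members in each library (points), by fraction and treatment group, with the group mean (line) and SD (bar); triangles are the 4 pull-downs richest in Gm42418. The pull-down means fall between 2796 and 3120 CPM and the supernatant means between 2757 and 2937, and the triangles are the lowest points of their groups.

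The first comparison asked whether messages of the mitochondrial ribosome stand apart on astrocyte ribosomes. They were split between the fractions: with edgeR's quasi-likelihood test at an adjusted p under 0.05, 25 of 78 members (32.1%) were higher in the pull-down and 27 (34.6%) were lower. Over all 15629 genes tested 43.1% were higher and 43.7% lower, 86.8% in all, against 66.7% of the members. The median log2 fold change of the members (IP over SN) was 0.0027, with an interquartile range from -0.31 to 0.36, whereas over all genes the median was -0.0088 and the interquartile range ran from -1.07 to 0.89. A called difference of 2-fold or more was seen upwards in 2 members and downwards in 2, Mrps26 and Mrpl53, where 22.8% and 26% of all genes had one. The 95% interval lay within 1.5-fold of no difference for 49 members. In bulk samples fewer cells of a type and less RNA per cell cannot be told apart. Without the filter on low counts the split was 30 higher and 20 lower, and the median of all genes moved to -0.18.

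**Figure D2:**
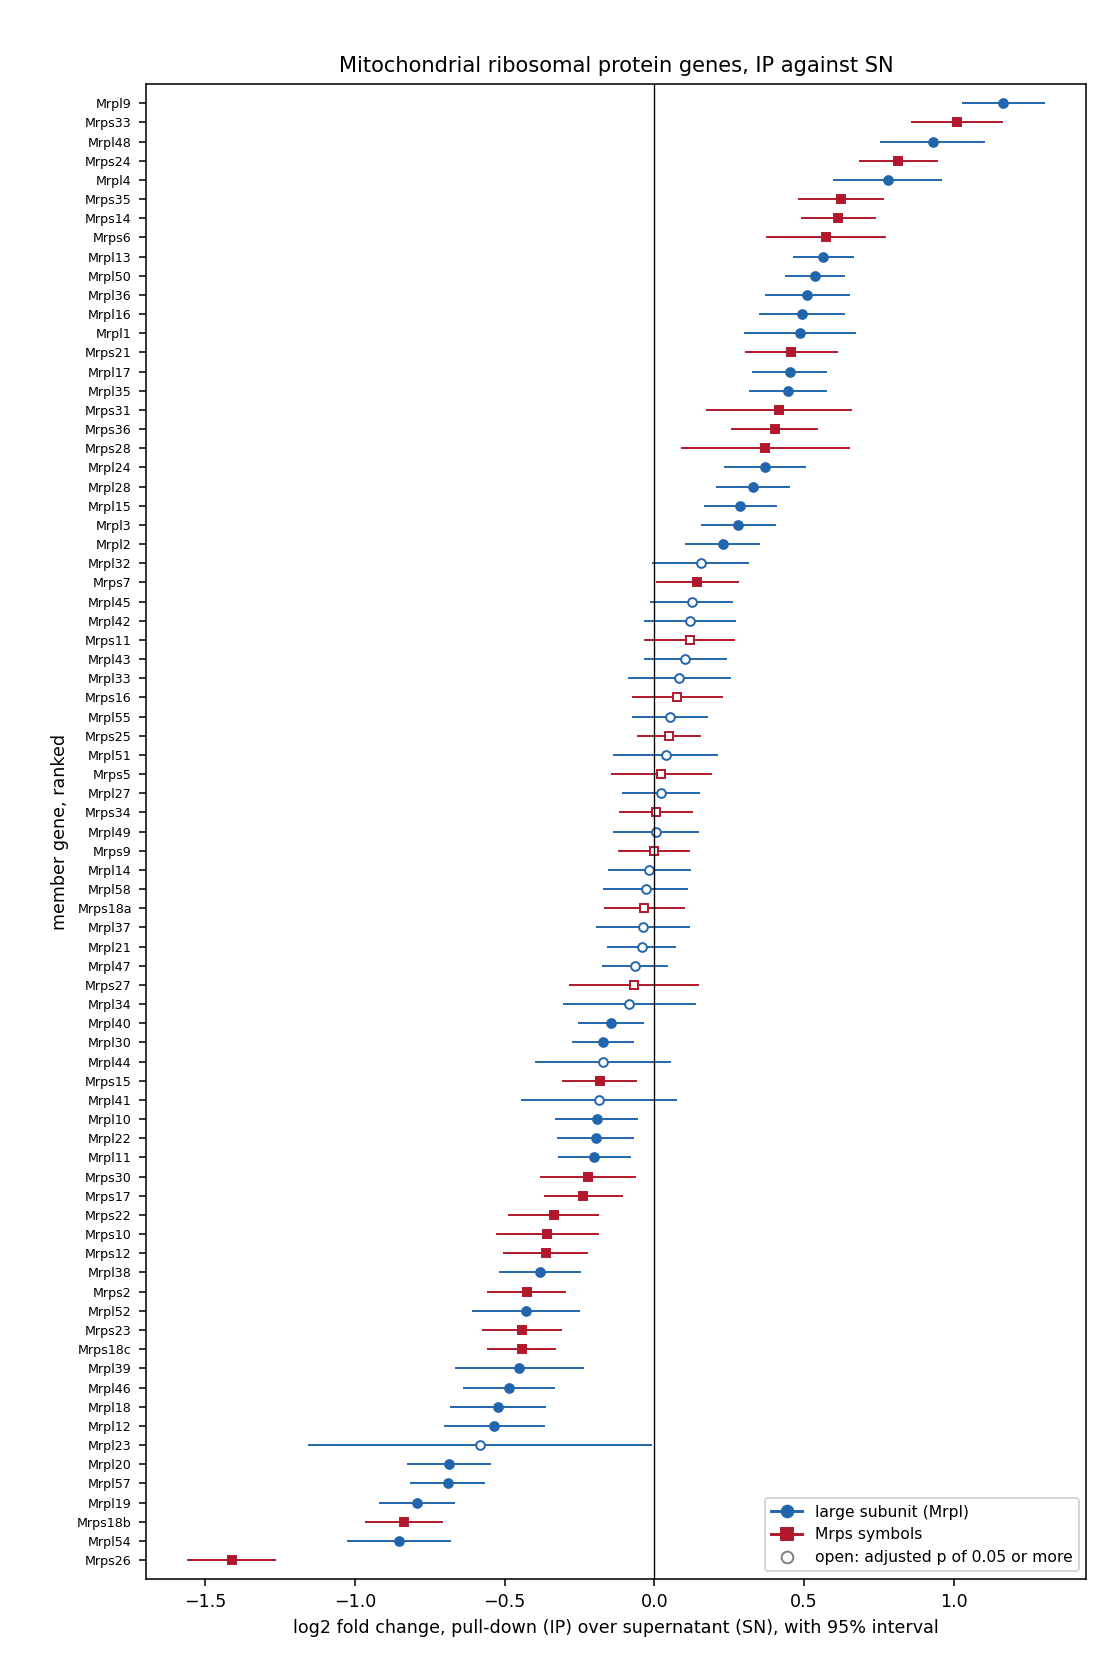
Log2 fold change (IP over SN) of 77 members with 95% intervals, ranked, with filled symbols for an adjusted p under 0.05, circles for Mrpl and squares for Mrps genes; Mrpl53, at 0 in 33 of 40 libraries, is not drawn. The members run from -1.41 for Mrps26 to 1.17 for Mrpl9, and both kinds of symbol lie on both sides of 0.

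Mrpl9, a large-subunit protein with a bacterial counterpart, was the member furthest above 0. Its gene lies at chr3:94443318-94451130 (GRCm38, plus strand). The pull-downs had 26.7 to 42.5 CPM (median 35.0) and the supernatants 10.5 to 20.9 CPM (median 15.6), so no pull-down overlapped any supernatant. The log2 fold change was 1.17 ± 0.07 (SE; adjusted p = 1.1e-19, edgeR), with 0.95 in Sham-Chow, 1.35 in Sham-HFD and 1.20 in GDX-HFD. Its exons overlap those of Oaz3 on the other strand.

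Mrps33, a small-subunit protein without a bacterial counterpart (chr6:39801804-39810988, minus strand), had 112 to 219 CPM in the pull-downs (median 185) and 73.2 to 138 CPM in the supernatants (median 86.2). The ranges overlapped through the supernatant GDX-HFD 2, at 138 CPM, and the lowest pull-downs. Its log2 fold change was 1.01 ± 0.07 (SE; adjusted p = 3.1e-16, edgeR). Mrps24, a small-subunit protein with a bacterial counterpart, had 25.6 to 48.9 CPM against 15.3 to 22.8 CPM, again without overlap, and a log2 fold change of 0.81 ± 0.06. Exons of Mrps24 overlap those of Urgcp on the same strand. Its estimated counts were not whole in 0 of the 40 libraries, so no fractional sharing shows. Whether whole reads went to the wrong gene was not tested. Mrpl48, a large-subunit protein gained in mitochondria, differed by 0.93 ± 0.08, with 53.6 to 109 CPM in the pull-downs and 35.4 to 60.8 CPM in the supernatants. Its estimated counts were not whole in 28 of the 40 libraries. Mrpl4 (0.78 ± 0.09), Mrps35 (0.62 ± 0.07) and Mrps14 (0.61 ± 0.06) came next. Mrps6 was higher too (0.57 ± 0.10), but its exons overlap those of Slc5a3, and the second table deposited by the authors gives it a mean of 225 reads in place of 756. In that table its mean signal was 33.9 ± 30.7 in the pull-downs and 2.59 ± 10.2 in the supernatants (SD, n = 20 each), so its level is uncertain.

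Mrps26, a small-subunit protein gained in mitochondria (chr2:130563742-130568695, plus strand), was the member furthest below 0 among those measured above 5 CPM. The pull-downs had 16.7 to 25.7 CPM (median 21.2) and the supernatants 43.1 to 81.2 CPM (median 55.2), with no overlap. The log2 fold change was -1.41 ± 0.07 (SE; adjusted p = 1.7e-21, edgeR), and it was -1.38, -1.48 and -1.37 in Sham-Chow, Sham-HFD and GDX-HFD. Exons of 4930473A02Rik overlap it on the other strand, and the strand setting of the counting is not given in the sources used here. Estimated counts of Mrps26 were not whole in 40 of the 40 libraries, which can arise when reads are shared between genes. Mrpl19 (12.5 to 20.0 against 23.7 to 38.2 CPM, log2 fold change -0.79 ± 0.06), Mrpl20 (-0.69 ± 0.07), Mrpl57 (-0.69 ± 0.06) and Mrps18b were the other members in which every pull-down lay below every supernatant. Such complete separation was seen for 5 members in this direction and for 2, Mrpl9 and Mrps24, in the other, where 18.9% and 18.3% of all genes tested had it. Mrpl54, a large-subunit protein gained in mitochondria, had 17.5 to 44.5 against 38.4 to 63.3 CPM and differed by -0.85 ± 0.08. Mrpl18 (-0.52 ± 0.08) and Mrpl12 (-0.53 ± 0.08), which is known also to bind the mitochondrial RNA polymerase, were lower as well. The fitted value of Mrpl53 (-5.40 ± 1.65) rests on 7 libraries with any count, and with limma voom it was not called.

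**Figure D3:**
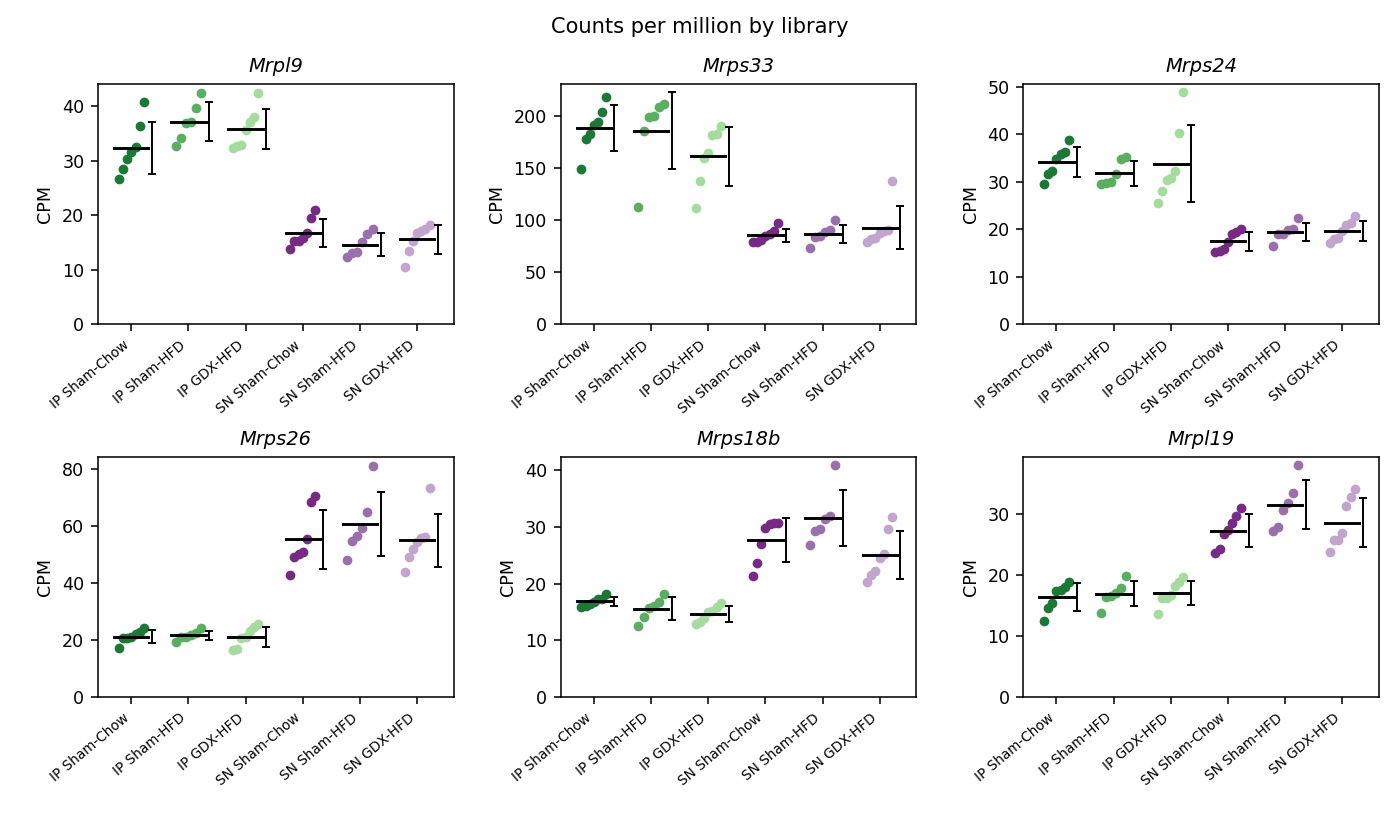
CPM of 6 members in each library (points) by fraction and treatment group, with group means (lines) and SDs (bars), on axes that start at 0. Mrpl9, Mrps33 and Mrps24 are higher in the pull-downs (IP) and Mrps26, Mrps18b and Mrpl19 higher in the supernatants (SN), in all 3 treatment groups.

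The subunits did not separate. Of 51 proteins of the large subunit 15 were higher and 17 lower, and of 26 of the small subunit 9 were higher and 10 lower. Among large-subunit proteins with a bacterial counterpart 13 of 30 were higher and 8 lower (median 0.07), while among those gained in mitochondria 2 of 21, Mrpl48 and Mrpl50, were higher and 9 lower (median -0.15). That difference between the classes was not tested. Small-subunit proteins gave 6 higher and 6 lower of 16 with a bacterial counterpart (median 0.05) and 3 higher and 4 lower of 10 without (median -0.03). The 3 relatives named Mrps18 differed among themselves: Mrps18b had a log2 fold change of -0.84 ± 0.06 and Mrps18c of -0.44 ± 0.06, whereas Mrps18a, which is placed in the large subunit, was at -0.03 ± 0.07 (adjusted p = 0.64, edgeR; 95% interval -0.17 to 0.10). Mrps18b ranged from 12.5 to 18.2 CPM in the pull-downs and from 20.2 to 40.9 CPM in the supernatants. Mrpl58, a peptidyl-tRNA hydrolase built into the large subunit, was at -0.03 ± 0.07 (adjusted p = 0.69, edgeR). Mrps30, also placed in the large subunit, was lower by a log2 fold change of -0.22 ± 0.08. Mrps36, now counted with the oxoglutarate dehydrogenase complex and not with the ribosome, was higher (0.40 ± 0.07).

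Within each treatment group, too, members were called in both directions. In Sham-Chow 23 members were higher and 18 lower (all genes 37.3% and 38.7%), with a median of 0.10 and 33 of 78 below 0. In Sham-HFD 20 were higher and 23 lower (37.6% and 38.2%), with a median of -0.03 and 43 below 0. In GDX-HFD 22 were higher and 25 lower (37.7% and 39.2%), with a median of -0.04 and 47 below 0. In all 3 groups 18 members were called higher and 14 lower, where 32.7% and 34.1% of all genes were, and no member was called in opposite directions. The groups share no library.

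Exons of 33 members overlap another gene, on the same strand for 8 of them and on the other strand for 28, among the latter Mrpl48 (Rab6a), Mrpl19 (Gcfc2), Mrpl18 (Tcp1), Mrpl43 (Twnk) and Mrps18b (Gm16279). The members lie on 17 chromosomes. Of the 78, 33 (42.3%) have a protein-coding gene on the other strand whose start lies within 1000 bases. Among 17643 protein-coding symbols of the table, not limited to those past the filter on low counts, 13% have such a neighbour. In a single case a member and its neighbour are both members, Mrpl46 and Mrps11, whose RefSeq starts lie 42 bases apart in the stretch printed above. Between their GENCODE starts the distance is -412 bases, where the minus sign means that the genes overlap. Mrpl46, of the large subunit, had 17.1 to 31.7 CPM in the pull-downs and 26.6 to 56.1 CPM in the supernatants, a log2 fold change of -0.49 ± 0.07 (adjusted p = 1.4e-07, edgeR). Mrps11, of the small subunit, had 12.4 to 24.99 and 11.5 to 20.5 CPM, and its difference did not pass (0.12 ± 0.07, adjusted p = 0.13, edgeR). Exons of this pair overlap in the annotation, so reads of one may have been given to the other. Estimated counts of either gene were not whole in 0 of the 40 libraries, so no fractional sharing shows. Whether whole reads went to the wrong gene was not tested. The ETS letters stood in 5 of 20 members called higher with a window, 11 of 24 called lower and 10 of 25 not called. The YY1 letters stood in 4, 1 and 7 of these and the NRF1 letters in 2, 4 and 2. These differences were not tested.

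Other gene lists were set beside the members, and over all genes tested 43.1% were higher in the pull-down and 43.7% lower. No list count below was tested against these shares. Of 5 proteins of the same ribosome that carry other symbols, Gadd45gip1 (-1.02 ± 0.07), Ptcd3 (-0.91 ± 0.07) and Chchd1 (-0.39 ± 0.09) were lower. Dap3 was higher (0.46 ± 0.07) and Aurkaip1 did not pass. Mitochondrial translation factors were higher in 8 and lower in 3 of 13, led by Taco1, an activator of translation (2.13 ± 0.16), the recycling factor Gfm2 (1.05 ± 0.08) and the elongation factor Tufm (0.75 ± 0.07). Mitochondrial tRNA synthetases and their partners gave 8 higher and 6 lower of 20, with Wars2 (1.72 ± 0.13) and Nars2 (1.05 ± 0.14) against Yars2 (-1.04 ± 0.11). Ribosome assembly factors gave 9 and 11 of 26, with Gtpbp10 (1.91 ± 0.15) and Mpv17l2 (1.90 ± 0.10) against the rRNA methyltransferase Mrm3 (-1.89 ± 0.12). Factors of mitochondrial DNA expression gave 7 and 5 of 14. Lrpprc, which stabilises mitochondrial messages, was lower (-1.57 ± 0.15). Pnpt1 (1.12 ± 0.15) and Supv3l1 (1.08 ± 0.10), which act in RNA degradation, were higher. Nuclear genes of oxidative phosphorylation gave 23 higher and 8 lower of 39 (median 0.23), with Sdhc of complex II (1.51 ± 0.07) and Atp5c1 of the ATP synthase (0.96 ± 0.09) against Ndufb9 of complex I (-0.87 ± 0.05). Of 8 regulators of mitochondrial biogenesis 5 were higher, Gabpa (2.57 ± 0.13), Ppargc1a (1.47 ± 0.09), Yy1 (1.32 ± 0.07), Nrf1 (0.60 ± 0.08) and Esrra (0.55 ± 0.07). The other 3 were lower, Ppargc1b (-1.63 ± 0.09), Gabpb1 (-0.66 ± 0.10) and Pprc1 (-0.37 ± 0.12). All 13 mitochondrially encoded messages, which the mitochondrial ribosome itself translates, were lower (median -4.52), led by mt-Cytb (-5.92 ± 0.13), mt-Nd4 (-5.81 ± 0.15) and mt-Atp6 (-5.46 ± 0.14). Of 79 cytosolic ribosomal protein genes 68 were lower and 6 higher (median -0.60), against the median of 0.0027 for the mitochondrial ones. The difference between these lists was not tested.

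The other comparisons asked whether diet or orchiectomy altered these messages. In the pull-downs no member passed in any of the 3 contrasts. For diet (Sham-HFD against Sham-Chow) 0 of 76 were called by edgeR, DESeq2 and limma voom, where 0% of 14059 genes were called by edgeR. None had an unadjusted p under 0.05, against 1.71% of all genes, and no member separated the groups completely (0.0356% of all genes). Of the 76, 63 had a log2 fold change below 0, as did 52.8% of all genes, and the median was -0.06. Without sample 12 it was -0.01 with 44 below 0 and 2 members at an unadjusted p under 0.05, without sample 1 it was -0.02 with 48, and without sample 8 it was -0.09. Genes of oxidative phosphorylation leaned the same way, with 38 of 39 below 0 (median -0.08). So did cytosolic ribosomal protein genes, with 67 of 79 (median -0.05), whereas mitochondrial translation factors had 6 of 13 below 0 (median 0.002). Among the members the smallest p values belonged to Mrpl9 (0.18 ± 0.10) and Mrpl22 (0.20 ± 0.11) above 0, and to Mrps23 (-0.15 ± 0.09) and Mrpl41 (-0.52 ± 0.32) below 0. Mrpl41 had 39.5 to 45.3 CPM in 6 chow pull-downs and 165 CPM in Sham-Chow 12, which also had the highest summed level of all libraries (3614 CPM). Estimated counts of Mrpl41 were not whole in 37 of the 40 libraries. The 95% interval lay within 1.5-fold of no change for 73 of 76 members.

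For orchiectomy in the pull-downs (GDX-HFD against Sham-HFD) 0 of 76 members were called by any of the 3 tools (0% of all genes by edgeR), and 1 had an unadjusted p under 0.05, against 6.53% of all genes. This was Mrpl13, with 51.3 to 73.0 CPM (median 63.1) in Sham-HFD and 44.7 to 59.3 CPM (median 56.1) in GDX-HFD. The groups overlapped, and the log2 fold change was -0.22 ± 0.09 (adjusted p = 0.74, edgeR). Mrpl24 (-0.25 ± 0.12), Mrps28 (0.52 ± 0.27) and Mrps2 (0.13 ± 0.10) had the next smallest p in their directions. In all, 56 of 76 lay below 0 (all genes 47.6%), with a median of -0.06, which was -0.11 without sample 1 and -0.10 without sample 10. Without sample 1 the count with an unadjusted p under 0.05 was 10. Genes of oxidative phosphorylation leaned the same way, with 30 of 39 below 0 (median -0.10). So did cytosolic ribosomal protein genes, with 68 of 79 (median -0.14), whereas mitochondrial translation factors had 7 of 13 below 0 (median -0.01). No member separated the groups completely (0.171% of all genes), and 69 intervals lay within 1.5-fold. In this contrast all 8 endothelial markers had a log2 fold change above 0 (median 0.74), none of them called. They summed to between 302 and 972 CPM in Sham-HFD and between 388 and 1598 CPM in GDX-HFD, with none at 0 throughout. Of the neuronal markers 1 of 10 lay below 0 (median 0.17) and of the oligodendrocyte markers 1 of 8 (median 0.26). Of the microglial markers 3 of 8 lay below 0 (median 0.07) and of the astrocyte markers 7 of 10 (median -0.05), none of them called. The part of all these markers in the values of the members was not tested. Of the pull-downs rich in Gm42418, 2 were among the 7 GDX-HFD libraries and 1 among the Sham-HFD libraries. Without the 4 of them 57 members lay below 0, the median was -0.07 and 7 had an unadjusted p under 0.05, with 0 called.

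For both treatments together (GDX-HFD against Sham-Chow) 0 of 76 were called by any of the 3 tools, against 0.0142% of all genes by edgeR, while 14 had an unadjusted p under 0.05, against 11.1% of all genes. Without sample 12 that count was 4, and without sample 8 it was 20. Mrpl13 had the smallest p (57.5 to 71.0 CPM in Sham-Chow against 44.7 to 59.3 in GDX-HFD, log2 fold change -0.27 ± 0.09, adjusted p = 0.37, edgeR), followed by Mrpl17 (67.6 to 89.6 against 54.7 to 68.8 CPM, -0.25 ± 0.09). Above 0 the smallest p belonged to Mrpl9 (0.15 ± 0.10) and Mrpl3 (0.09 ± 0.11). The median was -0.12 (-0.07 without sample 12), with 61 of 76 below 0 (all genes 49.1%), and 68 intervals lay within 1.5-fold. No member separated the groups completely (0.207% of all genes). The 3 contrasts share their groups, so their leans are not independent. Other lists leaned the same way in this contrast, with 36 of 39 genes of oxidative phosphorylation (median -0.15) and 74 of 79 cytosolic ribosomal protein genes (median -0.17) below 0. Endothelial markers lay above 0 in 8 of 8 (median 1.02, 272 to 786 CPM summed in Sham-Chow), none called. Of the neuronal markers 0 of 10 lay below 0 (median 0.21) and of the oligodendrocyte markers 1 of 8 (median 0.39). Of the astrocyte markers 6 of 10 lay below 0 (median -0.03). The part of these lists and markers in the values of the members was not tested.

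**Figure D4:**
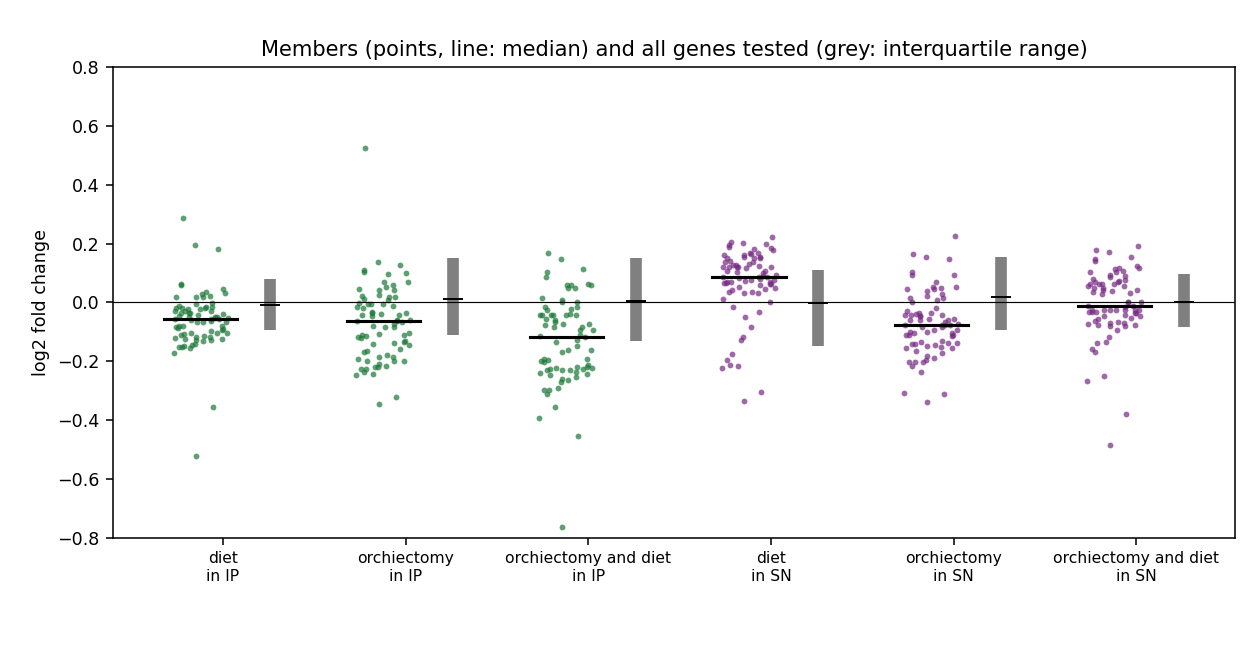
Log2 fold change of the members tested (points, with their median as a line) in 6 contrasts of diet and orchiectomy, beside the interquartile range of all genes tested (grey bar, with its median). Most members lie within 0.3 of 0, and the medians run from -0.12 to 0.09.

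In the supernatants, too, 0 of 77 members were called by edgeR, DESeq2 or limma voom in any contrast (0% of 14628 genes by edgeR in each of the 3). For diet 64 lay above 0 and 13 below it (all genes 50.3% below), with a median of 0.09 that was 0.06 without sample 12 and 0.13 without sample 15. None had an unadjusted p under 0.05 (1.41% of all genes), though 5 had one without sample 15 and 3 without sample 9, and the smallest p belonged to Mrpl19, with 23.7 to 31.0 CPM in Sham-Chow and 27.3 to 38.2 CPM in Sham-HFD (0.20 ± 0.10, adjusted p = 0.90, edgeR). Mrps6 (0.22 ± 0.12) came next above 0, and Mrpl9 (-0.21 ± 0.14) and Mrpl48 (-0.22 ± 0.15) led below it. Genes of oxidative phosphorylation summed to between 8043 and 10668 CPM in Sham-Chow and between 9046 and 11486.5 CPM in Sham-HFD. Whether the lean for diet is particular to the members was not tested. For orchiectomy 57 members lay below 0 (all genes 46.2%, median -0.08), and 3 had an unadjusted p under 0.05 (3% of all genes). That count was 11 without sample 2, 10 without sample 18 and 8 without sample 9 or 17. The median was -0.14 without sample 2 and -0.04 without sample 20. In this contrast the 10 astrocyte markers all had a log2 fold change above 0 (median 0.34), none of them called, and summed to between 1794 and 4224 CPM in Sham-HFD and between 1903 and 4450 CPM in GDX-HFD. Of 39 genes of oxidative phosphorylation 37 lay below 0 (median -0.10). Mrps18b led with 26.7 to 40.9 CPM in Sham-HFD and 20.2 to 31.7 CPM in GDX-HFD (-0.34 ± 0.12, adjusted p = 0.95, edgeR), followed by Mrpl22 (-0.31 ± 0.12). Mrpl21 (0.15 ± 0.09) and Mrpl48 (0.23 ± 0.15) led above 0. For both treatments together 40 lay below 0 (all genes 50%) with a median of -0.01 that ran from -0.05 to 0.03 as single samples were left out, and 2 had an unadjusted p under 0.05 (2.26% of all genes), Mrps28 (-0.49 ± 0.20) and Mrpl22 (-0.27 ± 0.11). Mrps9 (0.19 ± 0.09) and Mrps35 (0.17 ± 0.10) led above 0. Here, too, the astrocyte markers lay above 0 in 10 of 10 (median 0.53; 1542 to 3862 CPM summed in Sham-Chow), none called, and the part of these markers in the values of the members was not tested. No member separated the groups completely in any of them (0.041%, 0.0889% and 0.0205% of all genes), and the 95% intervals lay within 1.5-fold for 74, 73 and 74 of 77 members.

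Whether a treatment acted differently in the fractions was tested in a fit over all libraries. For diet 0 of 78 members were called by any of the 3 tools, against 0% of 15629 genes by edgeR, and 1 had an unadjusted p under 0.05 (2.55% of all genes). This was Mrpl9, with group means of 32.4 and 37.2 CPM in the chow and high-fat pull-downs and of 16.8 and 14.6 CPM in the supernatants (difference of log2 fold changes 0.40 ± 0.16, adjusted p = 0.97, edgeR). It lay above 0, whereas 65 of 78 members lay below 0 (all genes 50.6%), with a median of -0.14. Genes of oxidative phosphorylation leaned the same way, with 35 of 39 below 0 (median -0.18). So did cytosolic ribosomal protein genes, with 69 of 79 (median -0.13), whereas mitochondrial translation factors had 6 of 13 below 0 (median 0.03). Among the members Mrpl23 (1.03 ± 0.71) was next above 0, and Mrps18b (-0.30 ± 0.15) and Mrpl28 (-0.28 ± 0.15) had the smallest p below it. For orchiectomy 0 of 78 were called by any of the 3 tools, against 0.0064% of all genes by edgeR, and 3 had an unadjusted p under 0.05 (4.43% of all genes): Mrps28 (0.82 ± 0.34), Mrpl21 (-0.30 ± 0.14) and Mrpl53, whose counts are mostly 0. Mrps33 (-0.30 ± 0.18) came next below 0. The median was -0.01, with 42 of 78 below 0 (all genes 53.7%), and without the 4 pull-downs rich in Gm42418 it was 0.01 with 32 below 0. In this contrast 10 of 10 astrocyte markers lay below 0 (median -0.41) and 0 of 8 endothelial markers (median 0.87). Of the neuronal markers 1 of 10 lay below 0 (median 0.12), of the oligodendrocyte markers 1 of 8 (0.29) and of the microglial markers 2 of 8 (0.12). None of these markers was called, and their part in the values of the members was not tested.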

How the data were processed

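The authors deposited estimated counts per gene symbol in 40 libraries, 20 pull-downs and 20 supernatants. The submitters' processing notes name Trim Galore 0.6.4 for trimming, Salmon 1.9.0 and the build GRCm38. Which gene annotation served, whether counting used the strand, and how transcripts were summed is not given in the sources used here. Salmon shares out reads that fit several genes, so members whose exons overlap another gene are uncertain. Shared reads can leave counts that are not whole. Such counts stood in 28 or more of the 40 libraries for Mrps26 (40), Mrps34 (40), Mrpl23 (39), Mrpl41 (37), Mrpl48 (28) and Mrps18c (28). A second table deposited by the authors holds a signal that equals the estimated counts times 1 factor per library for 72 of the 78 members (within 0.01 counts); it differs for Mrpl11, Mrpl16, Mrpl28, Mrpl43, Mrpl49 and Mrps6, and it served only for an added alternative, limma on log2(value + 1). PCR copies cannot be told from molecules in either table.

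Estimated counts were rounded and tested by quasi-likelihood in edgeR 4.0.16 under R 4.3.3 (TMM, filterByExpr with a minimum count of 10, robust fit, Benjamini-Hochberg over all genes tested, threshold 0.05). Fractions and interactions were fitted over 40 libraries with 6 group means, diet and orchiectomy within each fraction's 20. SEs come from the F statistic. CPM values use the scaling of the 40-library fit. The scripts were tested on simulated data. Alternatives were RLE size factors, no filter, DESeq2 1.42.0, limma voom 3.58.1, leaving out mitochondrially encoded genes, the 4 pull-downs rich in Gm42418 or single samples, and sample number as a block.

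Members, gene lists and tests were chosen with earlier results of these data known. In the fraction comparison the 8 called members with the largest and the 8 with the lowest log2 fold change at a mean of at least 5 CPM were named, with the 5 highest and 3 lowest levels, the 2 smallest p in each direction of every other contrast, and Mrpl12, Mrpl58, Mrps18a, Mrps18b, Mrps18c, Mrps30, Mrps36 and Dap3. Of each other list the 3 largest differences were named. Chchd1, Aurkaip1, Yy1, Nrf1, Esrra, Gabpb1, Pprc1, Mrpl46, Mrps11 and Mrpl50 fall outside the rule and were added after their values were seen. Positions are those of GENCODE M21.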

Additional observations from a re-analysis of the deposited data

Results flagged for a closer look

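Single libraries far from the others of their group were looked for in 38 named members and in the summed level of all members, 234 groups of 6 or 7 libraries in all. In 21 cases the gap to the nearest library passed Dixon's critical value, where chance flags about 1 in 20 groups. Several belong to the same libraries. The pull-down Sham-HFD 1, the richest in Gm42418, had 51.0 CPM of Mrpl17 (the others 69.6 to 77.1), 53.2 of Mrps14 (63.3 to 64.5), 112.9 of Mrps33 (186 to 212) and 26.6 of Mrps2 (18.5 to 20.4), and its summed level was 2534 CPM (2967 to 3213). The pull-down Sham-Chow 12 had 165.05 CPM of Mrpl41 (39.5 to 45.3), 47.4 of Mrpl28 (28.5 to 36.5), 34.7 of Mrps35 (27.3 to 30.4) and 59.9 of Mrps36 (43.7 to 48.6). The supernatant of the same number had 83.3 CPM of Mrps21 (103 to 112). The pull-down GDX-HFD 10 had 78.2 CPM of Mrps14 and 38.8 of Mrps35, and GDX-HFD 22 had 21.0 of Mrpl58 (38.2 to 43.8) and 31.4 of Mrps9. The supernatant GDX-HFD 2 was high in Mrps26 (73.6 CPM), Mrps33 (138.4) and Mrps9 (33.9), and GDX-HFD 6 was low in Mrps28 (3.56 CPM). The supernatant Sham-HFD 20 had 40.9 CPM of Mrps18b (26.7 to 31.9). Mrpl53 had 25.9 CPM in the supernatant Sham-HFD 1 and 2.96 in GDX-HFD 10, in groups where most libraries were at 0. What sets these libraries apart was not tested.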

How the results depend on the processing

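No count of called members moved by more than 1.5 times under any alternative run. The fractions gave 22 to 30 members higher and 20 to 31 lower under the alternatives that kept all samples, with 30 and 20 when the filter was left out and 22 and 31 with limma on the second table, an alternative chosen after seeing the data. Leaving out single samples gave 24 to 28 higher and 26 to 29 lower. Of all 78 members, 7 turned direction with RLE size factors or DESeq2, 6 without the filter, 10 in the second table, 5 without mitochondrially encoded genes, 3 without the pull-downs rich in Gm42418 and 1 with limma voom or the replicate block, and 0 to 5 as single samples were left out; none of these was called in either fit. Among the named members Mrpl51 was at -0.02965 with RLE size factors, -0.02962 with DESeq2, -0.007544 without mitochondrially encoded genes and -0.08994 in the second table, and ranged from -0.003538 to 0.07766 as single samples were left out. Mrpl43 was at -0.01078 in the second table. Mrpl58 was at 0.03364 without the filter and 0.01587 without the 4 pull-downs rich in Gm42418, and ranged from -0.05405 to 0.01308 over single samples. Mrps18a was at 0.02638 without the filter. The cause was not tested. In the second table Mrps6 was at 3.28 and Mrpl28 at 0.02 (adjusted p = 0.98, limma), where the counts themselves differ between the tables.

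Sample numbers were not shown to pair the fractions: deviations of same-numbered libraries had correlations from -0.15 to 0.22 (median 0.03), 6 of 20 over 0.1, and 4 of 20 libraries correlated best with their own number. With a replicate block 24 members were higher and 29 lower, 51 of them called in both fits; Mrps7 was lost and Mrpl23 and Mrpl41 were gained. The block called no member in the interactions. No member was called for diet, orchiectomy or their interactions with the fraction under any alternative. Leaving out the pull-downs rich in Gm42418 does not bear on contrasts within the supernatants, and single samples were not left out for the interactions. Depth limits Mrpl23 and Mrpl53, with means under 5 CPM.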
